A study of Mus musculus with 26 samples.

Results

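The 9 genes described here encode secreted antagonists of bone morphogenetic proteins (BMPs) and activins, and were taken by symbol: gremlin (Grem1), noggin (Nog), chordin (Chrd), the chordin-like genes Chrdl1 and Chrdl2, follistatin (Fst), the follistatin-like genes Fstl1 and Fstl3, and Bmper. All 9 were found among the 54532 gene identifiers of the count tables. The 26 RNA-seq libraries came from aortas of male mice. Of the 16 untreated libraries, 4 were from the ascending and 4 from the descending aorta of Fbn1 C1041G/+ mice, and 4 were from each region of wild-type littermates. A further 10 libraries were made from ascending aortas of Fbn1 C1041G/+ mice, 5 given AGT-ASO, an antisense oligonucleotide named for angiotensinogen, and 5 given control ASO, so both antisense groups carried the Fbn1 allele. The allele is a heterozygous missense change in fibrillin-1, a microfibril protein, and is used as a mouse model of Marfan syndrome. The labels used here give no age, dose, duration or pooling.

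BMPs and activins signal by bringing type I and type II receptors together, which then phosphorylate SMAD transcription factors. Antagonists bind the ligands outside the cell and keep them from these receptors. Gremlin, noggin and the chordins bind mainly BMPs, whereas follistatin and FSTL3 bind activins with high affinity. BMPER, a relative of the fly crossveinless protein, can dampen or promote BMP signals. FSTL1 is a secreted glycoprotein of mesenchymal cells with a follistatin-like domain. In arteries this pathway is known for its part in endothelial and smooth muscle cell identity and in calcification.

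The promoter windows of Grem1, the gene with the widest genotype difference, and of Bmper, whose clearest difference lay between regions of wild-type aorta, are shown to compare their letters. Both are RefSeq sequences of build GRCm38.p6, covering 250 bases before and 50 after the gene start, at chr2:113758599-113758898 on the minus strand for Grem1 and chr9:23222826-23223125 on the plus strand for Bmper. Capitals mark matches to CAGAC, a short SMAD-binding sequence, and to GGCGCC, a GC-rich SMAD element, on either strand.
Grem1: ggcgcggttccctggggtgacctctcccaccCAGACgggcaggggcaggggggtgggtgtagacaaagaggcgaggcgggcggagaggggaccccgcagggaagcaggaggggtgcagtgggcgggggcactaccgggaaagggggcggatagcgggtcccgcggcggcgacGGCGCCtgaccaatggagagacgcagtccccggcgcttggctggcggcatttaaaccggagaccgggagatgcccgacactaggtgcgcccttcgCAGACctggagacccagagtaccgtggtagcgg
Bmper: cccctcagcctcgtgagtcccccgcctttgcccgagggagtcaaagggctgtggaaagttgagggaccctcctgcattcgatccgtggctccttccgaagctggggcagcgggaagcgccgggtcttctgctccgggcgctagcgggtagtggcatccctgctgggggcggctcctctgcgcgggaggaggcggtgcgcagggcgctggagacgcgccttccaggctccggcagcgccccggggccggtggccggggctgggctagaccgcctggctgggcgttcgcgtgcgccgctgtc
The Grem1 window held CAGAC at 2 places and GGCGCC at 1, and neither TGANTCA, the AP-1 motif, nor a CArG box. None of these 4 motifs was in the Bmper window. Among all 32851 promoter windows of this length, 49.6% held CAGAC, 11.9% GGCGCC, 7.81% TGANTCA and 1.63% a CArG box. Guanine and cytosine made up 70.7% of the Grem1 window and 72.7% of the Bmper window, against a median of 52.7% over all windows. The table held windows for 5 of the 9 genes; those of Chrd and Fstl3 held 1 and 2 CAGAC matches, Chrd also held 1 GGCGCC, and Fstl1 held none of the 4 motifs.

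Libraries held 17171652 to 28554356 counts assigned to genes. Levels are given as CPM, the count scaled to library depth after adjustment by a TMM scaling factor. These factors ran from 0.973 to 1.04 in untreated and from 0.938 to 1.02 in antisense libraries. They were estimated apart for untreated and antisense libraries, so levels of these sets are not on the same scale. Markers of smooth muscle, the main cell of the aortic wall, summed to 15189 to 28168 CPM in every library. In these bulk samples, fewer cells of a type and less RNA per cell cannot be told apart. A point mutation cannot be read from gene counts, so genotype rests on the labels; Fbn1 ranged from 352 to 507 CPM in C1041G/+ and 312 to 432 CPM in wild-type descending aorta. Agt, made mainly by the liver, was at 0.0961, 1.47, 0.109, 0.208 and 0.112 CPM in the AGT-ASO aortas, against 0.540, 0.301, 0.340, 0.787 and 0.454 CPM in the control ASO aortas, so library 15, labelled AGT-ASO, was above every control ASO library in the targeted transcript, against its label, and the other 4 were below all of them. Untreated C1041G/+ ascending aortas had Agt at 0.0501 to 0.437 CPM. At so low a level, aortic Agt cannot settle whether a label is right. Library 2 of C1041G/+ ascending aorta stood apart with 105 CPM of summed lymphocyte and thymus markers, against 3.30 to 15.8 CPM in the other 3 libraries of its group. Wild-type ascending library 3 stood apart with 962 CPM of summed heart muscle markers, against 269 to 644 CPM in the other 3.

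In the descending aorta, Grem1, Chrdl1 and Fst were higher in C1041G/+ than in wild-type mice. They were 3 of the 8 antagonists tested, and none was lower. Grem1 met the count filter through its C1041G/+ descending libraries, the group where it was high. Its place among the 8 rested on that group. Of all 15645 genes 1.21% passed the same test, 0.678% higher and 0.531% lower (edgeR quasi-likelihood F test, Benjamini-Hochberg adjusted p below 0.05). Grem1, which binds BMP2 and BMP4, was close to absent from wild-type libraries. Chrdl1 and Fst were well expressed in both genotypes and were 2.17-fold and 2.18-fold higher in the mutant.

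Grem1 (ENSMUSG00000074934, chr2:113746164-113758646) was at 1.63, 1.36, 3.79 and 2.58 CPM in C1041G/+ descending aortas, against 0, 0.0508, 0.117 and 0.158 CPM in wild-type descending aortas. These values stand for 29, 24, 71 and 53 counts in C1041G/+ libraries and 0, 1, 2 and 3 counts in wild-type libraries. Every C1041G/+ library lay above every wild-type library, but the wild-type level was set by 3 counts or fewer per library. The fitted log2 fold change was 4.75 ± 0.71 (SE; edgeR, adjusted p = 0.0013), and its size leans on those few wild-type counts.

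Chrdl1 (ENSMUSG00000031283, chrX:143285674-143394262), a chordin relative that binds BMPs, was at 71.8, 70.9, 88.6 and 83.5 CPM in C1041G/+ descending aortas, against 42.5, 37.5, 26.5 and 38.5 CPM in wild-type descending aortas. The groups were well separated, with a log2 fold change of 1.12 ± 0.13 (SE; edgeR, adjusted p = 9.0e-05). Fst (ENSMUSG00000021765, chr13:114452290-114458951), the activin-binding follistatin, was at 21.8, 13.5, 16.5 and 14.7 CPM in C1041G/+ descending aortas, against 8.11, 7.47, 5.48 and 9.38 CPM in wild-type descending aortas. Its log2 fold change was also 1.12 ± 0.16 (SE; edgeR, adjusted p = 0.00064), and again the groups did not overlap. Over 115 exonic bases Fst overlaps the antisense gene Gm47040, and the strand setting of the counting is not given in the sources used here. All 3 calls held in each of 14 other fits, including every one that left out 1 library.

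Noggin and chordin did not pass the test in this comparison. Nog, a BMP antagonist best known from joint formation, was at 1.46, 4.02, 2.19 and 2.14 CPM in C1041G/+ descending aortas, against 1.47, 0.864, 0.757 and 0.738 CPM in wild-type descending aortas. In 3 of the 4 C1041G/+ libraries the values were above all wild-type values, and the other was level with the highest of them (log2 fold change 1.35 ± 0.37, SE; edgeR, adjusted p = 0.10). Chrd, which is cleaved by tolloid proteases, was at 15.1, 14.6, 15.6 and 16.9 CPM in C1041G/+ descending aortas, against 17.6, 18.5, 22.0 and 22.5 CPM in wild-type descending aortas. Its groups did not overlap, with the mutant lower (log2 fold change -0.37 ± 0.10, SE; edgeR, adjusted p = 0.087). With DESeq2, Nog and Chrd both passed, at adjusted p of 0.030 and 0.029. Over 239 exonic bases Chrd overlaps Thpo on the other strand. The groups of 4 of the 8 tested antagonists, Grem1 included, did not overlap, against 7.29% of all genes tested.

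Fstl1, Fstl3 and Bmper showed small genotype differences in the descending aorta, with log2 fold changes of -0.05 ± 0.10, 0.14 ± 0.18 and -0.21 ± 0.37 (SE; edgeR, adjusted p = 0.93, 0.87 and 0.91). The median log2 fold change of the 8 tested antagonists was 0.63, against 0.00 over all genes. Of the 7 cartilage markers 1, Acan, was higher in C1041G/+ descending aorta and none passed as lower, but the median log2 fold change of the 7 was -0.56. Their summed level was 130 to 169 CPM in C1041G/+ and 72.5 to 118 CPM in wild-type libraries. No marker of the 10 other cell types passed the test. The median log2 fold changes of these 10 lists ran from -0.98 over 3 tested skeletal muscle markers to 0.73 over 6 mesothelial markers. Whether cartilage-type genes or any of these cell types share in the antagonist differences was not tested.

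**Figure D1:**
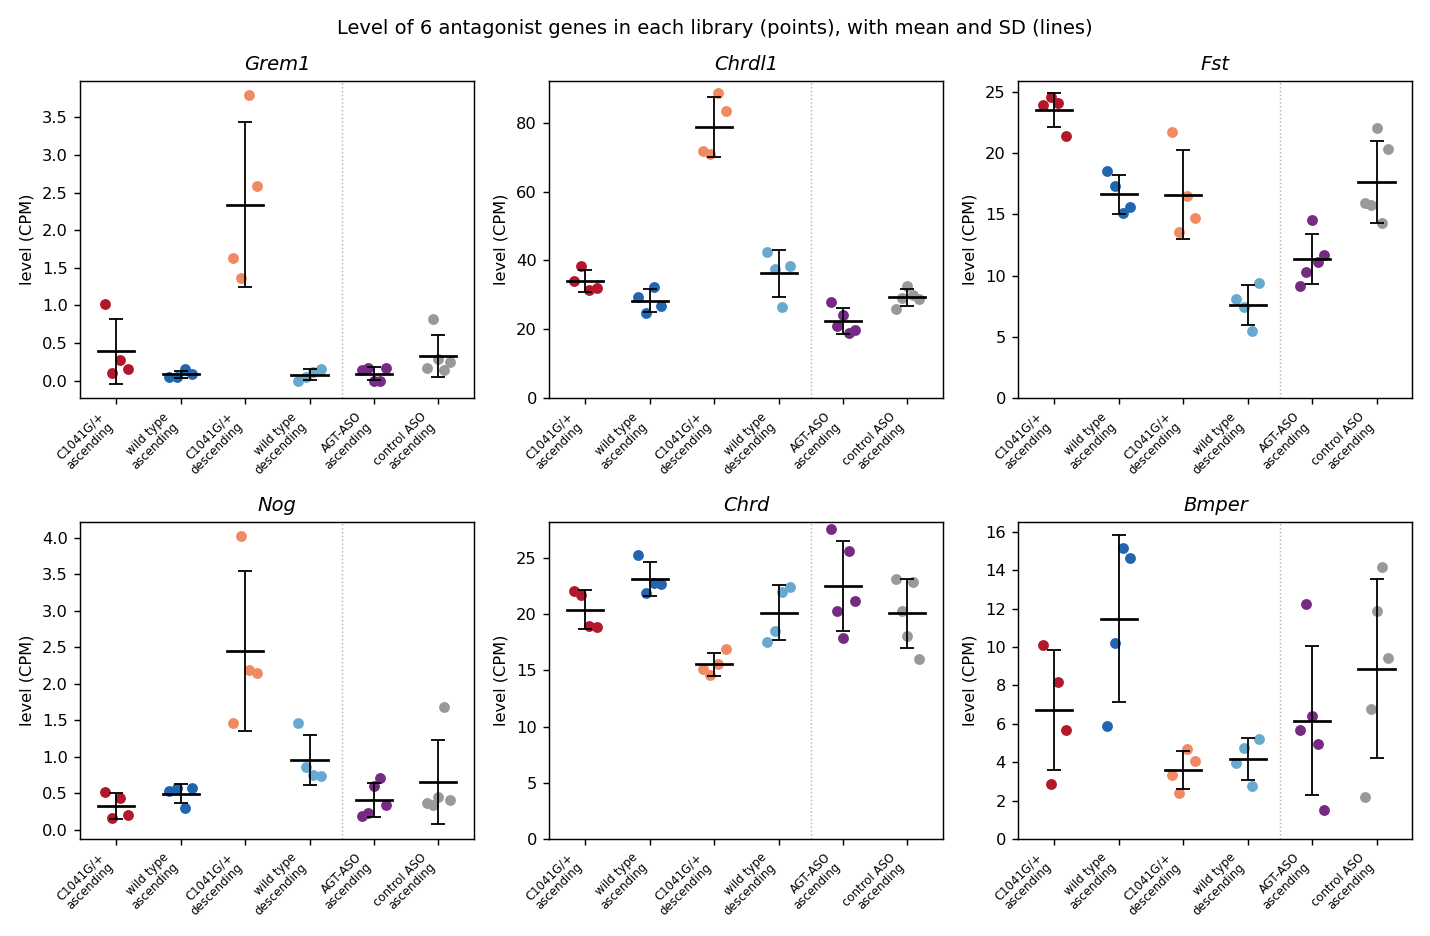
Level in CPM on a linear axis of Grem1, Chrdl1, Fst, Nog, Chrd and Bmper in each of the 26 libraries (points), with the mean and SD of each group (lines); the dotted line parts the untreated libraries from the antisense ones. Among the untreated groups, Grem1 and Chrdl1 stand highest in C1041G/+ descending aorta, at means of 2.34 and 78.7 CPM. Fst stands highest among them in C1041G/+ ascending aorta, at a mean of 23.5 CPM.

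In the ascending aorta, none of the 8 antagonists tested passed between C1041G/+ and wild-type mice with edgeR, where 2.19% of all genes did, 1.18% higher and 1% lower. At an unadjusted p below 0.05 there were 4 antagonists of 8 and 16.2% of all genes, and DESeq2 called 1 antagonist, Fst. Fst was at 23.9, 24.6, 24.1 and 21.4 CPM in C1041G/+ ascending aortas, against 18.6, 17.3, 15.1 and 15.6 CPM in wild-type ascending aortas. Its groups did not overlap, the single such case of the 8 antagonists, against 9.5% of all genes. The log2 fold change was 0.50 ± 0.15 (SE; edgeR, adjusted p = 0.094). It passed with DESeq2 (adjusted p = 0.032), when only the ascending groups were fitted (adjusted p = 0.032) and when libraries of the same number were treated as a random block (limma, adjusted p = 0.047).

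The other antagonists of the ascending aorta overlapped between genotypes. Grem1 was at 1.03, 0.109, 0.273 and 0.150 CPM in C1041G/+ ascending aortas, against 0.0533, 0.0442, 0.153 and 0.0958 CPM in wild-type ascending aortas. The highest value belonged to library 2, which also carried the most lymphocyte and thymus marker counts. The log2 fold change was 2.16 ± 0.78 (SE; edgeR, adjusted p = 0.17) and was 0.99 without that library (adjusted p = 0.68). Chrdl1 was at 34.0, 38.5, 31.5 and 31.9 CPM in C1041G/+ and 29.3, 24.6, 32.4 and 26.7 CPM in wild-type ascending aortas (log2 fold change 0.27 ± 0.13, SE; edgeR, adjusted p = 0.31). Bmper was at 10.1, 2.88, 8.19 and 5.66 CPM in C1041G/+ and 5.87, 10.2, 15.1 and 14.7 CPM in wild-type ascending aortas. Its spread within each group was wide (log2 fold change -0.77 ± 0.34, SE; edgeR, adjusted p = 0.28).

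Fstl3, a circulating activin binder, was at 84.0, 73.2, 49.6 and 50.7 CPM in C1041G/+ and 54.3, 53.0, 38.2 and 49.9 CPM in wild-type ascending aortas (edgeR, adjusted p = 0.29). Library 2 was again the highest of its group, and the groups overlapped. Of its exonic bases 1157 overlap Prss57 on the other strand. The remaining antagonists, Nog, Chrd and Fstl1, had adjusted p of 0.57, 0.37 and 0.90 in edgeR. Over the 8 antagonists the median log2 fold change was 0.15, against -0.01 over all genes.

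Whether the genotype difference itself changed between regions was tested by the interaction of genotype and region. No antagonist passed, where 0.00639% of all genes, 1 gene, did. At an unadjusted p below 0.05 there were 4 of 8 antagonists and 5.08% of all genes, and DESeq2 called 1 antagonist, Chrdl1 (adjusted p = 0.0089). With edgeR, the genotype log2 fold change of Chrdl1 was lower by 0.85 ± 0.18 in the ascending than in the descending aorta (SE; adjusted p = 0.22). The same difference of log2 fold changes was -1.93 ± 0.59 for Nog, -0.63 ± 0.21 for Fst and -2.59 ± 1.23 for Grem1 (SE; edgeR, adjusted p = 0.61, 0.74 and 0.97).

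**Figure D2:**
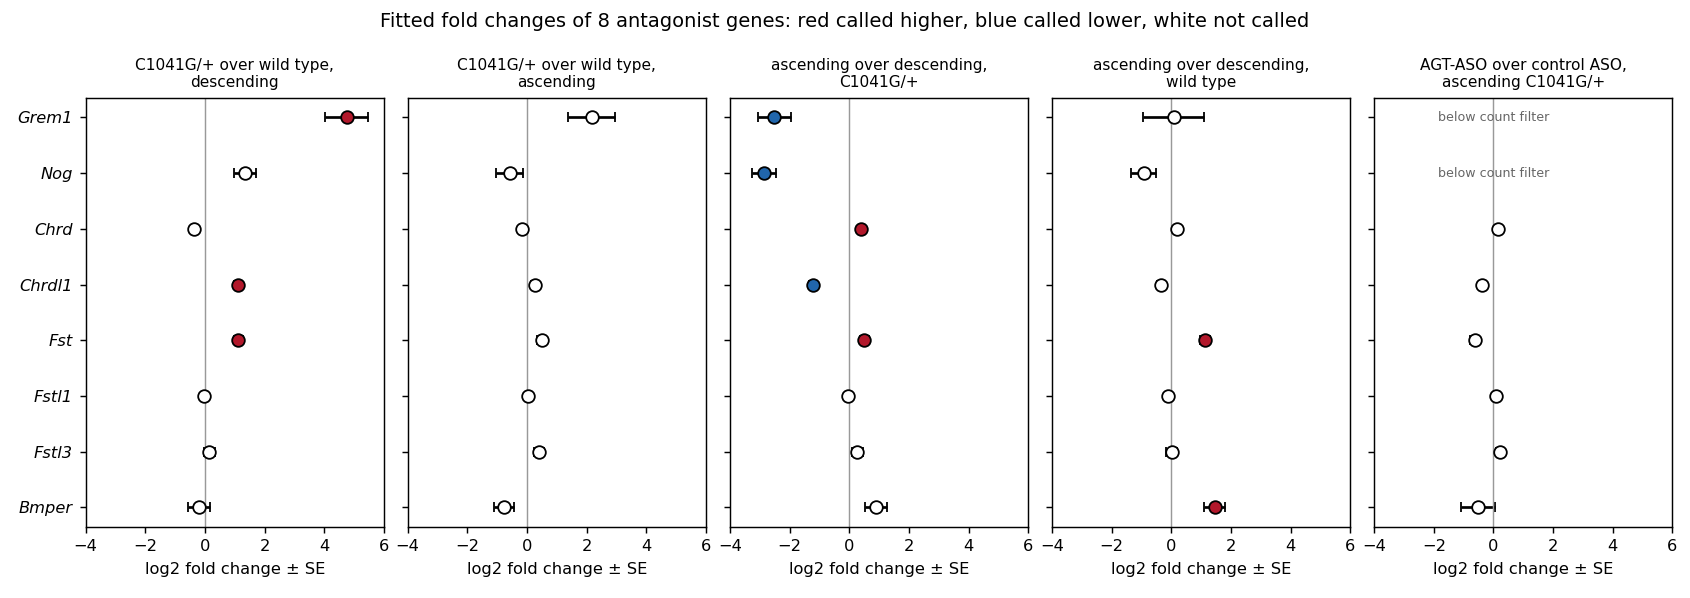
Fitted log2 fold changes (points) with SE (bars) of the 8 tested antagonists in 5 comparisons; red marks a higher and blue a lower gene at an adjusted p below 0.05, and white a gene that did not pass. Red points for Grem1, Chrdl1 and Fst lie right of 0 in the descending genotype panel, and no point is filled in the ascending genotype and AGT-ASO panels.

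Between regions of the C1041G/+ aorta, 5 of the 8 antagonists differed, 2 higher and 3 lower in the ascending aorta, against 9.92% of all genes, 6.41% higher and 3.51% lower. Grem1, Nog and Chrdl1 were lower and Chrd and Fst higher in the ascending aorta. The groups of 4 antagonists did not overlap, against 14.4% of all genes. This comparison uses the same C1041G/+ descending libraries as the genotype comparison above, and Grem1 again met the count filter through them. Nog had a log2 fold change of -2.86 ± 0.42, Grem1 of -2.51 ± 0.56 and Chrdl1 of -1.21 ± 0.13 (SE; edgeR, adjusted p = 0.00011, 0.0057 and 2.7e-06).

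Nog was at 0.513, 0.163, 0.437 and 0.200 CPM in the ascending aortas of C1041G/+ mice, against the 1.46 to 4.02 CPM given for their descending aortas. Chrd was at 22.08, 21.71, 18.99 and 18.83 CPM in the ascending aortas of C1041G/+ mice, each above the highest descending value of 16.9 CPM (log2 fold change 0.39 ± 0.10, SE; edgeR, adjusted p = 0.014). Fst overlapped between regions, since descending library 2, at 21.8 CPM, was above the lowest ascending library, at 21.4 CPM. Its log2 fold change of 0.50 ± 0.15 (SE; edgeR, adjusted p = 0.039) stopped passing in 6 of 8 fits that left out 1 library, namely ascending 2, 4 or 6 or descending 4, 6 or 8, with adjusted p of up to 0.12. Without the 2 libraries that stood apart, Fst and Chrd did not pass (adjusted p = 0.093 and 0.055), while Grem1, Nog and Chrdl1 did. Bmper averaged 6.70 ± 3.12 CPM in ascending and 3.61 ± 0.995 CPM in descending C1041G/+ aortas (SD, n = 4 each; edgeR, adjusted p = 0.16) and passed without ascending library 4 (adjusted p = 0.030).

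Between regions of the wild-type aorta, 2 of the 8 antagonists passed, Fst and Bmper, both higher in the ascending aorta, against 11.1% of all genes, 7.82% higher and 3.31% lower. Fst was at 18.6, 17.3, 15.1 and 15.6 CPM in ascending and 8.11, 7.47, 5.48 and 9.38 CPM in descending wild-type aortas (log2 fold change 1.13 ± 0.16, SE; edgeR, adjusted p = 5.6e-05). Every ascending library was above every descending one. Bmper (chr9:23223076-23485200) was at 5.87, 10.2, 15.1 and 14.7 CPM in ascending and 3.97, 4.73, 2.74 and 5.22 CPM in descending wild-type aortas (log2 fold change 1.46 ± 0.35, SE; edgeR, adjusted p = 0.011). Its groups did not overlap either, though the lowest ascending library was near the descending range.

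Nog was at 0.533, 0.574, 0.306 and 0.575 CPM in ascending and 1.47, 0.864, 0.757 and 0.738 CPM in descending wild-type aortas. These groups also did not overlap, which made 3 of 8 antagonists against 14.5% of all genes, but the test was not passed (log2 fold change -0.93 ± 0.41, SE; edgeR, adjusted p = 0.19). Chrdl1 had a log2 fold change of -0.36 ± 0.13 between wild-type regions (SE; edgeR, adjusted p = 0.086) and passed without descending library 5 (log2 fold change -0.47, adjusted p = 0.0062). Grem1 was near the floor in both wild-type regions, with 1, 1, 3 and 2 counts in ascending and 0, 1, 2 and 3 counts in descending libraries.

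Libraries of the ascending and descending aorta that carry the same number could be set side by side. Among C1041G/+ pairs, Grem1, Nog and Chrdl1 were lower in the ascending library in 4 of 4 pairs, and the Chrdl1 ratio of ascending to descending ran from 0.356 to 0.542. Fst, Chrd, Bmper and Fstl3 were higher in the ascending library in 4 of 4 C1041G/+ pairs. In wild-type pairs, Fst, Bmper and Chrd were higher in the ascending library in 4 of 4 and Nog in 0 of 4. Chrdl1 was higher in 1 of 4 wild-type pairs, with ratios from 0.657 to 1.22. Groups that do not overlap give such uniform counts under any pairing. That was so for Grem1, Nog, Chrdl1 and Chrd in C1041G/+ and for Fst, Bmper and Nog in wild-type aortas. How many of all genes went 1 way in every pair was not counted.

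**Figure D3:**
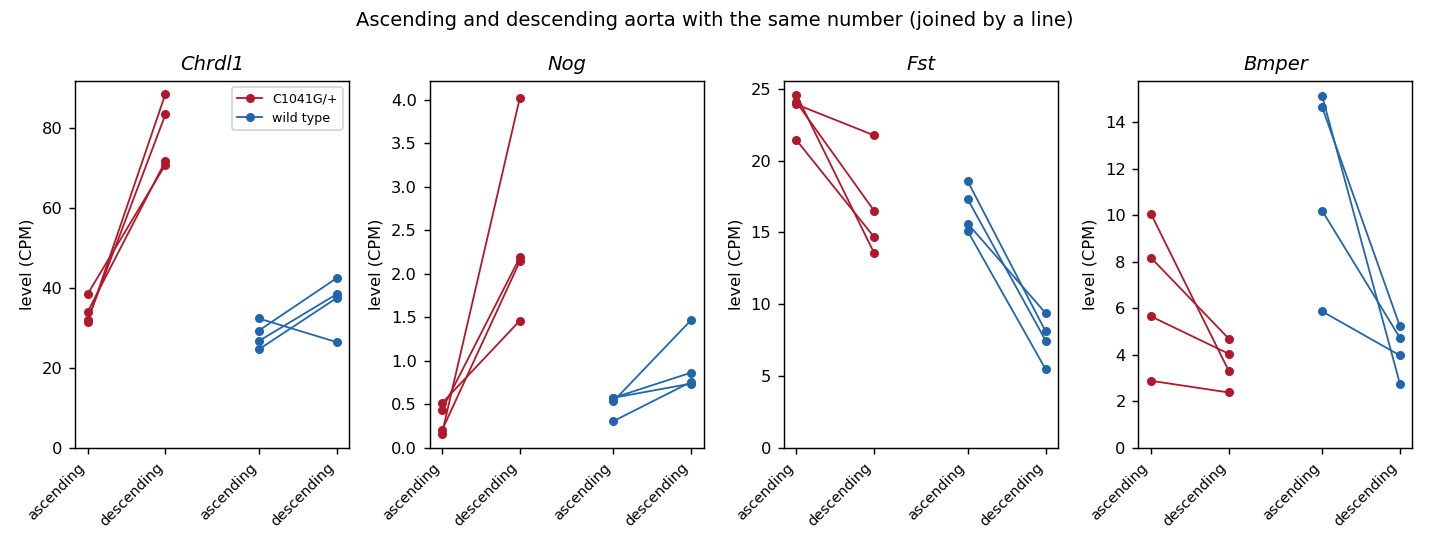
Level in CPM of Chrdl1, Nog, Fst and Bmper in ascending and descending libraries of the same number (joined points), with 4 pairs of C1041G/+ libraries in red and 4 pairs of wild-type libraries in blue. All red lines of Chrdl1 and Nog climb from the ascending to the descending library, and all lines of Fst and Bmper descend in both genotypes.

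Markers of other tissues also differed between the regions. In C1041G/+ mice 5 of 7 heart muscle markers and 6 of 6 mesothelial markers were higher in the ascending aorta, where heart markers summed to 284 to 585 CPM, against 121 to 238 CPM in the descending aorta. Mesothelial markers summed to 309 to 524 CPM in ascending and 8.05 to 21.2 CPM in descending C1041G/+ libraries. In wild-type mice the same 5 of 7 and 6 of 6 counts were found, with heart sums of 269 to 962 CPM in ascending and 66.1 to 139 CPM in descending libraries. Wild-type mesothelial sums were 265 to 381 CPM in ascending and 5.07 to 11.3 CPM in descending libraries. Cartilage markers were higher in the ascending aorta in 3 of 7 cases in C1041G/+ and 4 of 7 in wild-type mice, and adventitial fibroblast markers in 1 of 6 and 4 of 6. Schwann cell markers were higher in 1 of 4 and 3 of 4. Other lists held lower markers: of 5 endothelial markers 1 was higher and 1 lower in ascending C1041G/+ aorta, and 1 was higher and 3 lower in ascending wild-type aorta. Endothelial sums were 1086 to 1759 CPM in ascending and 1784 to 2058 CPM in descending C1041G/+ libraries, and 1165 to 1610.2 CPM in ascending and 2086 to 2861 CPM in descending wild-type libraries. Of 6 adipocyte markers 2 were lower in ascending C1041G/+ and 1 in ascending wild-type aorta. Wild-type cartilage sums were 140 to 377 CPM in ascending and 72.5 to 118 CPM in descending libraries. No marker was at 0 in all libraries of an untreated group. The part of these tissues in the regional levels of Fst, Bmper, Chrd, Nog, Grem1 and Chrdl1 was not tested.

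Within C1041G/+ ascending aorta, none of the 6 antagonists tested passed between AGT-ASO and control ASO with edgeR, where 0.0668% of all 14981 genes did, 0.0134% higher and 0.0534% lower. At an unadjusted p below 0.05 there were 2 of 6 antagonists, Fst and Chrdl1, and 12.7% of all genes. DESeq2 called 1 antagonist, Fst. No antagonist had groups that did not overlap, against 2.46% of all genes.

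Fst was at 9.13, 10.3, 14.6, 11.1 and 11.7 CPM in AGT-ASO aortas, against 15.9, 15.7, 22.1, 14.3 and 20.4 CPM in control ASO aortas. One AGT-ASO library lay just above the lowest control ASO library, and the other 4 lay below all controls. The log2 fold change was -0.64 ± 0.15 (SE; edgeR, adjusted p = 0.11). Other fits gave it an adjusted p of 0.011 with DESeq2, 0.0040 with no filter on low counts and 0.045 without control ASO library 8. Chrdl1 was at 28.02, 21.0, 24.2, 18.9 and 19.7 CPM in AGT-ASO aortas, against 25.9, 29.1, 32.6, 30.0 and 28.8 CPM in control ASO aortas. Only AGT-ASO library 14 reached into the control range (log2 fold change -0.39 ± 0.11, SE; edgeR, adjusted p = 0.17). Chrdl1 passed without that library (adjusted p = 0.046) and with no filter on low counts (adjusted p = 0.049).

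Bmper was at 5.67, 12.2, 6.39, 4.96 and 1.52 CPM in AGT-ASO aortas, against 2.16, 6.80, 11.9, 14.2 and 9.42 CPM in control ASO aortas, ranges that overlapped almost wholly (edgeR, adjusted p = 0.76). Fstl3, Chrd and Fstl1 had log2 fold changes of 0.20 ± 0.11, 0.16 ± 0.13 and 0.10 ± 0.09 (SE; edgeR, adjusted p = 0.46, 0.64 and 0.68). The median over the 6 antagonists was -0.15, against -0.01 over all genes. Grem1, Nog and Chrdl2 were below the count filter. Grem1 had 3, 3, 0, 0 and 3 counts in AGT-ASO libraries, against 4, 19, 5, 4 and 5 counts in control ASO libraries, and Nog averaged 0.413 ± 0.230 CPM in AGT-ASO and 0.651 ± 0.577 CPM in control ASO libraries (SD, n = 5 each). Every control ASO library held more Grem1 counts than any AGT-ASO library, but scaled to depth the ranges overlapped, at 0 to 0.169 CPM with AGT-ASO and 0.143 to 0.817 CPM with control ASO, in libraries of 17355174 to 23544005 counts with AGT-ASO and 17367021 to 28554356 with control ASO. With no filter their log2 fold changes were -1.75 for Grem1 and -0.65 for Nog (edgeR, adjusted p = 0.47 and 0.64).

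Heart muscle markers summed to 300.3 to 644 CPM in AGT-ASO libraries and 648 to 1359 CPM in control ASO libraries, ranges that did not overlap, although none of the 6 markers tested passed. The part of heart muscle in the Fst and Chrdl1 values was not tested. Endothelial markers summed to 130 to 334 CPM in AGT-ASO and 222 to 313 CPM in control ASO libraries. In the untreated libraries they summed to at least 1086 CPM, and what sets the antisense libraries apart was not tested. Without library 15, labelled AGT-ASO, the log2 fold change was -0.60 for Fst and -0.36 for Chrdl1 (edgeR, adjusted p = 0.17 and 0.23), and it was -0.93 for Bmper (adjusted p = 0.53), against -0.53 with it (adjusted p = 0.76).

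Per kilobase of exon, Fstl1 was far above the other antagonists in every group, at 447 ± 16.8 CPM per kb in C1041G/+ and 462 ± 59.5 CPM per kb in wild-type descending aorta (SD, n = 4 each). It gave 92.2% to 95.7% of all counts of the 9 genes. Its level in CPM averaged 2198 ± 82.5 in C1041G/+ and 2268 ± 292 in wild-type descending aortas, and 2139 ± 43.7 in C1041G/+ and 2092 ± 261 in wild-type ascending aortas (SD, n = 4 each). Fstl3 came next in every group, at 19.8 to 26.3 CPM per kb. In C1041G/+ descending aorta Chrdl1 followed, at 11.6 ± 1.29 CPM per kb, ahead of Fst at 3.62 ± 0.792 and Chrd at 2.48 ± 0.160 (SD, n = 4). Ascending aortas of C1041G/+ mice held Fst and Chrdl1 at like levels, 5.12 ± 0.307 and 5.03 ± 0.471 CPM per kb (SD, n = 4). The group means of Nog, Bmper and Grem1 were below 2.5 CPM per kb in all groups.

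Chrdl2 had at most 4 counts in any group and was tested nowhere. It had 1, 2, 0 and 1 counts in C1041G/+ and 0, 0, 3 and 0 counts in wild-type ascending libraries. No count fell to it in any descending or AGT-ASO library, and control ASO libraries had 0, 0, 2, 0 and 1. A group total of 3 counts, the most that a count of 0 allows, corresponds to 0.0263 to 0.0405 CPM, here scaled without TMM factors. Such limits cover counting error only.

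**Figure D4:**
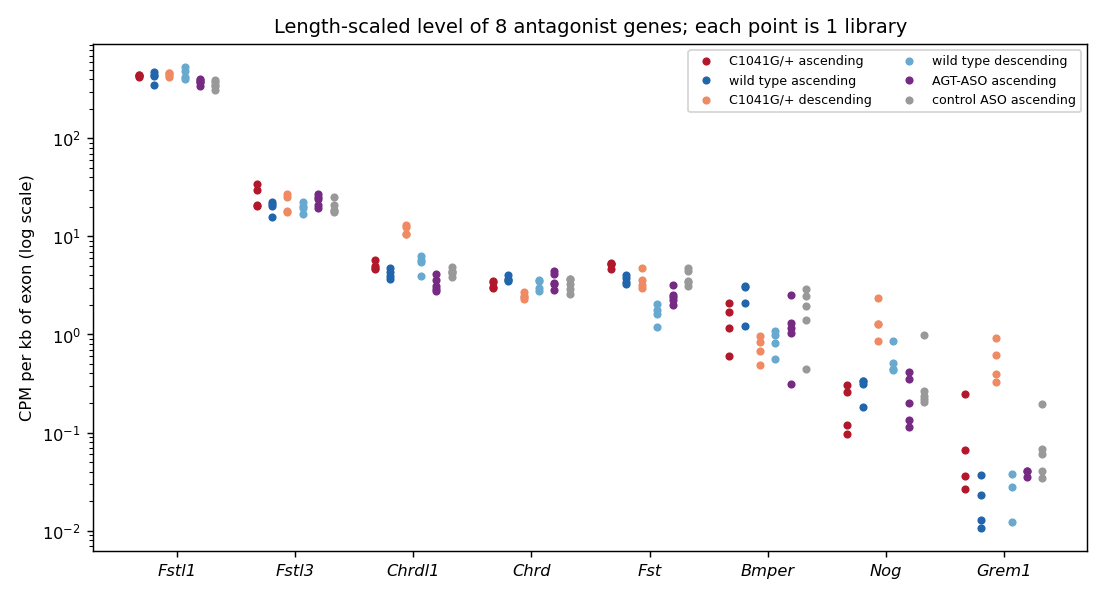
Level of 8 antagonists in CPM per kb of exon on a log axis, with each point 1 library and each colour 1 of the 6 groups; libraries with 0 counts and Chrdl2 are not drawn. Fstl1 lies above all other genes, at group means of 354 to 462 CPM per kb. The Grem1 points of C1041G/+ descending aorta, with a mean of 0.564 CPM per kb, lie above those of the other untreated groups.

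Levels over the 4 untreated groups differed in order between Grem1, Chrdl1 and Fst. Grem1 averaged 0.389 ± 0.430 CPM in C1041G/+ ascending, 2.34 ± 1.10 in C1041G/+ descending, 0.0866 ± 0.0496 in wild-type ascending and 0.0814 ± 0.0700 CPM in wild-type descending aorta (SD, n = 4 each). Only C1041G/+ descending aorta, the highest, was clear of its neighbour in that order. Chrdl1 averaged 34.0 ± 3.18 CPM in C1041G/+ ascending, 78.7 ± 8.75 in C1041G/+ descending, 28.3 ± 3.34 in wild-type ascending and 36.2 ± 6.87 CPM in wild-type descending aorta (SD, n = 4 each), and again only C1041G/+ descending aorta was clear of the rest. Fst averaged 23.5 ± 1.41 CPM in C1041G/+ ascending, 16.6 ± 3.64 in C1041G/+ descending, 16.6 ± 1.59 in wild-type ascending and 7.61 ± 1.63 CPM in wild-type descending aorta (SD, n = 4 each). Its lowest group was clear of the others, while C1041G/+ descending and wild-type ascending aorta overlapped.

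Genes with the profile nearest to an antagonist over the 16 untreated libraries were found by the root mean square difference of centred log2 CPM among 12848 genes. For Grem1 these were Ak5, an adenylate kinase, at 0.43 and Foxd2, a forkhead transcription factor, at 0.48, against a median of 0.99 over all candidates. For Chrdl1 they were Il1rl2, the interleukin-36 receptor, at 0.23 and again Ak5, at 0.26, against a median of 0.61. For Fst they were Ccn3, a matricellular protein, at 0.24 and Vgll3, a TEAD cofactor, at 0.28, against a median of 0.64. Nog lay nearest to Cyp4b1 (0.34) and to Agtr1b, an angiotensin II receptor (0.38), Bmper to Adamts7 and Nt5dc2 (both 0.33), and Chrd to C1qtnf12 and Eid1 (both 0.13). The medians over all candidates were 0.76 for Nog, 0.77 for Bmper and 0.30 for Chrd. These distances describe the same libraries and carry no test.

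Among the ligands that the antagonists bind, 1 gene passed between genotypes, in the ascending aorta. Of 11 tested BMP and GDF ligands, none passed between genotypes in either region with edgeR; in each region 2 had an unadjusted p below 0.05 and DESeq2 called 1. Of 4 tested activin-type ligands, Inhba, which encodes the activin A subunit that follistatin binds, was higher in C1041G/+ ascending aorta, at 220.0 to 279 CPM, against 153 to 197 CPM in wild-type ascending aorta (log2 fold change 0.53 ± 0.10, SE; edgeR, adjusted p = 0.0071). In the descending aorta Inhba was at 161 to 189 CPM in C1041G/+ and 124 to 147 CPM in wild-type libraries and did not pass. None of the 4 passed there with edgeR, 3 had an unadjusted p below 0.05 and DESeq2 called 1. Over all genes, 10.8% had an unadjusted p below 0.05 in descending and 16.2% in ascending aorta. With edgeR 1.21% of all genes passed in descending and 2.19% in ascending aorta.

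Of 14 tested receptors and co-receptors 1 passed with edgeR in each region, the type I BMP receptor Bmpr1b, against 1.21% of all genes in descending and 2.19% in ascending aorta. At an unadjusted p below 0.05 there were 2 of 14 in descending and 6 of 14 in ascending aorta, against 10.8% and 16.2% of all genes. DESeq2 called 1 of the 14 in descending and 2 in ascending aorta. Bmpr1b was at 21.2 to 41.2 CPM in C1041G/+ and 46.5 to 76.7 CPM in wild-type descending aortas (log2 fold change -1.16 ± 0.23, SE; edgeR, adjusted p = 0.016). In ascending aortas it was at 25.5 to 33.3 CPM in C1041G/+ and 53.8 to 87.2 CPM in wild-type libraries (log2 fold change -1.07 ± 0.22, SE; edgeR, adjusted p = 0.020). The descending call was lost without C1041G/+ library 4, 6 or 8 or wild-type library 3 (adjusted p of 0.053 to 0.064), and the ascending call without C1041G/+ library 2, 4 or 6 (adjusted p of 0.059 to 0.064). With no filter on low counts both were lost (adjusted p of 0.063 in descending and 0.069 in ascending aorta). The descending call was also lost with only the descending groups fitted (adjusted p = 0.081), and the ascending one without both libraries that stood apart (adjusted p = 0.11).

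None of the 10 SMAD and SMURF genes passed in any comparison with edgeR, while 1 to 3 had an unadjusted p below 0.05 in each comparison. Over all genes, the share with an unadjusted p below 0.05 was 10.8% for genotype in descending and 16.2% in ascending aorta. It was 20.1% between C1041G/+ regions, 21.1% between wild-type regions, 5.08% for the interaction and 12.7% for AGT-ASO. DESeq2 called 1 of the 10 for genotype in descending aorta, 2 in ascending aorta and 0 in the other comparisons. Of 11 tested BMP target genes, a list that shares Smad6, Smad7, Smad9 and Bambi with the lists above, none passed between genotypes in descending aorta with edgeR or DESeq2, and 1 had an unadjusted p below 0.05. In ascending aorta Hey1, a Notch and BMP target, was at 5.98 to 7.67 CPM in C1041G/+ and 9.20 to 12.9 CPM in wild-type libraries (log2 fold change -0.68 ± 0.17, SE; edgeR, adjusted p = 0.041). Leaving out C1041G/+ library 2, 4 or 6, or wild-type library 1, 3 or 5, ended the Hey1 call, with adjusted p of up to 0.14, and leaving out both libraries that stood apart gave 0.29. None of 14 other tested antagonists and modulators passed between genotypes in either region with edgeR, where 2 had an unadjusted p below 0.05 in each region and DESeq2 called 2 in descending and 1 in ascending aorta. No gene of the 6 lists passed for AGT-ASO or for the interaction with edgeR. In each list 1 to 3 genes had an unadjusted p below 0.05 for AGT-ASO and 0 or 1 for the interaction. DESeq2 called 2 ligands and 1 receptor for AGT-ASO and none of these genes for the interaction.

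Markers that passed between genotypes in the ascending aorta were Tagln of smooth muscle and Acan of cartilage, both higher, and Dpt of adventitial fibroblasts and Chad of cartilage, both lower in C1041G/+ mice. The median log2 fold changes there were 0.24 over 5 smooth muscle, -0.40 over 6 fibroblast and -1.25 over 7 cartilage markers. Their part in the Inhba, Bmpr1b and Hey1 differences was not tested.

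**Figure D5:**
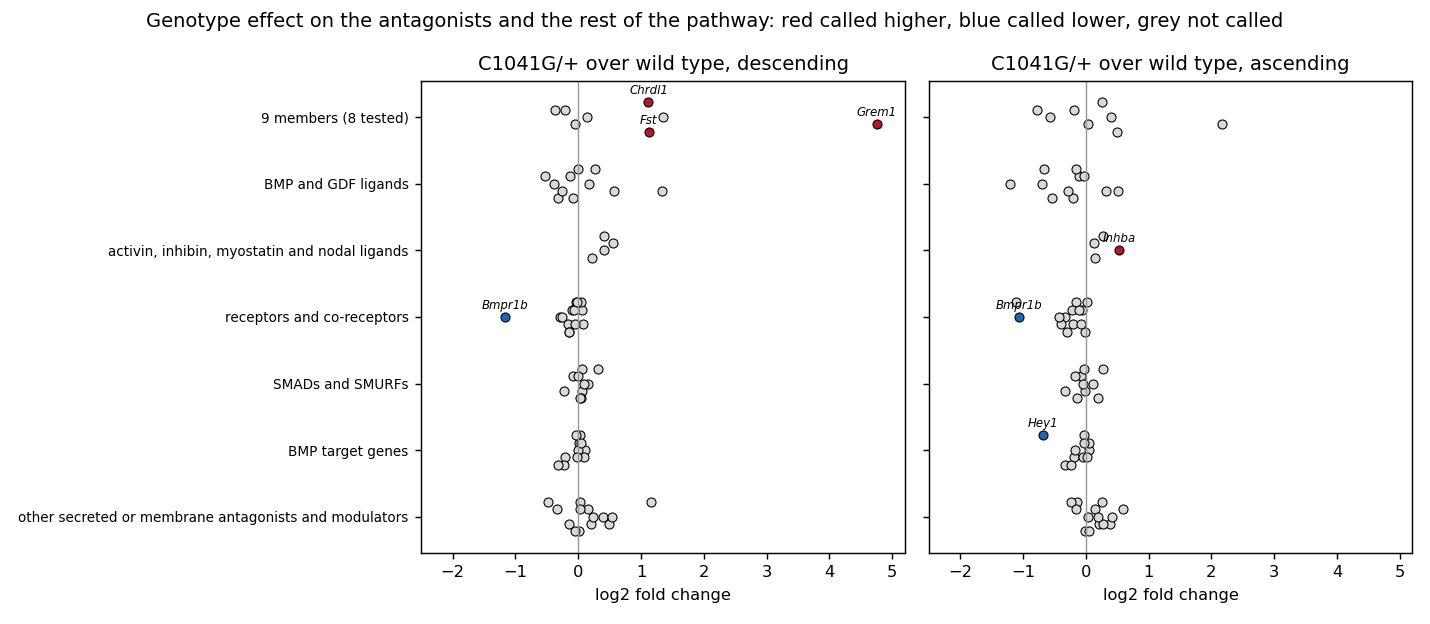
Fitted log2 fold changes of C1041G/+ over wild type for the antagonists and 6 lists of pathway genes (rows), in descending and ascending aorta (panels); each point is 1 gene, red higher and blue lower at an adjusted p below 0.05, and grey not passing. Outside the antagonists the coloured points are Bmpr1b in both panels and Inhba and Hey1 in the ascending panel.

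Between regions, ligands of both families differed. In C1041G/+ mice 3 of 11 BMP and GDF ligands were higher and 1 was lower in the ascending aorta, and in wild-type mice 5 were higher and 1 lower. Gdf2, Bmp5 and Bmp7 met the count filter through the ascending libraries, where they were high. Their place among the 11, and so part of these counts, rested on those libraries. Of all genes 6.41% were higher and 3.51% lower in C1041G/+ mice, and 7.82% higher and 3.31% lower in wild-type mice. Gdf2, which encodes BMP9, was at 4.48 to 5.55 CPM in ascending and 0 to 0.160 CPM in descending C1041G/+ libraries, and at 4.03 to 6.13 CPM in ascending and 0 to 0.109 CPM in descending wild-type libraries. Bmp3 and Bmp7 were also higher in ascending and Bmp6 lower in both genotypes, with Bmp6 at 114 to 147 CPM in ascending and 202 to 239 CPM in descending C1041G/+ libraries (log2 fold change -0.74 ± 0.20, SE; edgeR, adjusted p = 0.024). In wild-type mice Gdf6 and Bmp5 were higher as well; Bmp5 had no count in any descending library and 0.107 to 1.68 CPM in ascending ones. The activin subunit genes Inhba and Inhbb were higher in the ascending aorta of both genotypes.

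Msx1, a homeobox target of BMPs, was higher in the ascending aorta, at 19.9 to 22.9 CPM in ascending and 9.21 to 11.3 CPM in descending C1041G/+ libraries. Among the receptors, Rgma was lower in ascending C1041G/+ aorta, and in wild-type mice Eng was higher and Acvrl1 lower in ascending aorta. Of 14 other antagonists and modulators, 1 was higher and 4 lower in ascending C1041G/+ aorta, and 1 higher and 2 lower in wild-type aorta, beside those same shares of all genes. Vwc2, a chordin-like cysteine-rich antagonist, was at 25.6 to 36.1 CPM in ascending and 80.4 to 109.7 CPM in descending C1041G/+ libraries (log2 fold change -1.56 ± 0.16, SE; edgeR, adjusted p = 4.9e-06). Tmeff2, a membrane protein with follistatin domains, was lower and Tll1, a tolloid protease that cleaves chordin, higher in ascending aorta in both genotypes. Tll1, the 1 modulator counted as higher, met the count filter through the ascending libraries, where it was high. Nbl1, a gremlin relative, and Bmp1, another chordin-cleaving protease, were lower in ascending C1041G/+ aorta. In C1041G/+ mice, leaving out 1 library ended the calls of Bmp1 and Rgma in 5 of 8 fits each, Bmp6 in 4 of 8 and Bmp7 in 1 of 8. In wild-type mice it ended the call of Bmp5 in 7 of 8 fits, and those of Gdf6 and Acvrl1 in 1 of 8 each. Tissue markers that differed between the regions are given above, and their part in the regional levels of these genes was not tested.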

How the data were processed

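RNA was extracted from mouse aorta and sequenced as 1 library per sample, per the labels' protocols. The deposited values are raw counts per Ensembl gene; the tools named are fastp and STAR 2.6.1d and the build mm10, per the submitters' processing notes. How reads were assigned to genes, including strand, is not given in the sources used here. Symbols and positions came from GENCODE M21 on GRCm38, and 54495 of 54532 identifiers had a symbol.

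Counts were fitted with edgeR 4.0.16 in R 4.3.3 (quasi-likelihood F test, TMM scaling, filterByExpr by group, two-sided). The 16 untreated libraries were fitted together (15645 genes, 12 residual degrees of freedom) and the 10 antisense libraries apart (14981 genes, 8 degrees of freedom). The p-values were adjusted over all genes tested by the Benjamini-Hochberg method, with 0.05 as the threshold, and each SE is the log2 fold change over the square root of F. The scripts were tested on simulated data. Total counts of 17171652 to 28554356 per library set the precision of low genes. Alternatives were no filter on low counts, RLE scaling, DESeq2 1.42.0, fitting only the groups compared, a replicate block (limma 3.58.1 where random), leaving out each library, and, added after seeing the data, leaving out the 2 libraries that stood apart.

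The labels do not say that libraries came from separate mice, so p-values measure the spread between libraries. Numbers 1 to 8 recur in both regions. In all 8 pairs of equal number, deviations from the group means correlated across genes (r from 0.204 to 0.367), against a mean of -0.096 over the 24 other pairs. Because deviations are taken from group means, positive values in the 8 pairs force a negative mean on the others, which is no separate contrast. The numbers were taken to pair the libraries, but the main fits leave the pairing out. With the number as a fixed block, 2321 genes passed between C1041G/+ regions, against 1552 in the main fit. Between wild-type regions 2424 passed, against 1741. The 9 antagonists are named whatever their values. From each pathway list every gene past the threshold is named, and as nearest profiles the 2 protein-coding genes closest to each antagonist that passed in any comparison, among genes with a mean of at least 1 CPM (0.5 CPM added before taking logs). Members, lists and markers were chosen with earlier results of these data known. Promoter sequences are RefSeq's for GRCm38.p6.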

Additional observations from a re-analysis of the deposited data

Results flagged for a closer look

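In 51 combinations of gene and group, 4 had 1 library far from the others by Dixon's criterion. Chance alone flags about 1 in 20 groups when values are normally distributed, which genes of few counts need not be. Grem1 was at 0.817 CPM in control ASO library 12, against at most 0.284 CPM in the other 4 control ASO libraries. Nog was at 1.68 CPM in control ASO library 16, against at most 0.454 CPM in the other 4. Nog was also low in wild-type ascending library 5, at 0.306 CPM, where the nearest of the other 3 libraries was at 0.533 CPM. Chrdl2 was at 0.153 CPM in wild-type ascending library 5, from 3 counts, with 0 in the other 3 libraries. A group with counts in only 1 library is always flagged, whatever the count.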

How the results depend on the processing

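Of 1124 log2 fold changes refitted under an alternative, 1039 kept their direction and their side of the threshold, 59 stopped passing, 13 newly passed and 13 turned round; for these the cause was not tested. Those that turned round had passed no test in that comparison. In the genotype comparison Fstl1 became 0.03 in descending aorta without wild-type library 1 (range over single libraries left out -0.11 to 0.03), and in ascending aorta -0.05 without wild-type library 3 (range -0.05 to 0.09) and -0.06 without both libraries that stood apart. Between wild-type regions Grem1 became -0.30 without ascending library 5 or descending library 1 and -0.09 without descending library 3 (range -0.30 to 0.60). Fstl3 there became -0.05 without ascending library 1, -0.06 without descending library 7 (range -0.06 to 0.12), and -0.03 without ascending library 3 or without both libraries that stood apart. The Fstl1 interaction became 0.00 without wild-type ascending library 3 or descending library 1 (range up to 0.14), and -0.01 without both that stood apart.

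With DESeq2 the antagonists passing numbered 5 for genotype in descending aorta, 1 in ascending aorta, 1 for the interaction and 1 for AGT-ASO, and the genes passing 419, 779, 38 and 289 in those comparisons. With no filter on low counts 2 antagonists and 147 genes passed for AGT-ASO and 6 genes for the interaction. Fitting only the ascending groups passed 1 antagonist. With the replicate block, 1 antagonist (Fst) passed for genotype in ascending aorta and 13 genes for the interaction; it changed no other call of an antagonist. Groups of the antisense libraries share no numbers. Without both libraries that stood apart 110 genes passed for genotype in ascending aorta and 3 antagonists between regions of C1041G/+ mice.

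Leaving out 1 library gave 3 antagonists and 128 to 170 genes for genotype in descending aorta, and 0 antagonists and 163 (without C1041G/+ library 2) to 347 genes in ascending aorta. It gave 4 to 5 antagonists and 1247 to 1425 genes between C1041G/+ regions, and 2 to 3 antagonists and 1409 to 1782 genes between wild-type regions. For the interaction it gave 0 antagonists and 1 to 10 genes, and for AGT-ASO 0 to 1 antagonist and 0 to 180 genes, the most without control ASO library 8. Depth limits Grem1, Nog and Chrdl2, which had few counts in most groups.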

Other observations

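Bmper varied widely between libraries of one group, and its lowest library was in 5 of 6 groups also the one with the lowest cartilage marker score, a mean of log2(CPM + 0.5) over the 7 markers. In C1041G/+ ascending aorta library 4 had 2.88 CPM of Bmper and a score of 1.91, against scores of at least 2.82 in the other 3 libraries. In wild-type ascending aorta library 1 had 5.87 CPM and a score of 2.84, against at least 3.35. AGT-ASO library 20 had 1.52 CPM and 2.61, against at least 2.81, and control ASO library 8 had 2.16 CPM and 2.47, against at least 2.64. In C1041G/+ descending aorta library 4 had 2.38 CPM and 1.61, against at least 1.69. Wild-type descending aorta was the exception, with Bmper lowest in library 5 and the score lowest in library 3. The library highest in Bmper was highest in the score in 3 of 6 groups (wild-type ascending, C1041G/+ descending and AGT-ASO) and not in the other 3. Of the marker lists, only cartilage was set beside Bmper in this way, so how often another list would match is not known. These are descriptions of the same libraries, and any link between Bmper and cartilage-type genes was not tested.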
